A study of Mus musculus with 92 samples.

Results

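A set of 9 genes of the p53 and DNA damage response was followed across 3 tissues of a mouse model of amyotrophic lateral sclerosis: Cdkn1a, Mdm2, Ccng1, Trp53inp1, Bax, Sesn1, Phlda3, Polk and Tigar. Probes of the array were matched to these symbols and the brightest detected probe stood for each gene. Of the 9 genes 7 had a probe, out of 15967 genes with a symbol on the array, and Bax and Sesn1 had none listed under their symbol. Polk and Tigar were chosen by their lower signal in the muscle of the mutant mice, so the genotype differences in muscle given for the 9 genes are descriptions and carry no test. All 7 measured genes passed the detection filter in spinal cord and in muscle (detection p under 0.05 on at least 7 arrays of the tissue), and 6 passed it in blood. Tigar was detected on 1 of 31 blood arrays.

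The mice were B6.Cg-Tg(G93A-SOD1)1Gur/J animals, which carry a transgene of mutant human superoxide dismutase 1, and their wild type littermates were the controls (the labels give the strain name for both). Both were sampled at 70 and at 100 days of age, with no other treatment named. In this line the human gene is driven by its own promoter, so every tissue carries the mutant protein rather than 1 cell type alone. Motor neurons die with age and muscles lose their nerve supply. RNA came from the lumbar spinal cord, from the left tibialis anterior (a leg muscle of mostly fast fibres) and from whole blood depleted of globin transcripts. Of the 12 groups 8 had 8 arrays. The other 4, which were wild type at 100 days in each tissue and G93A-SOD1 muscle of the same age, had 7. The labels do not say that each array came from a separate mouse, so p-values measure the spread between these arrays only.

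The protein p53 is a transcription factor that is stabilised when DNA is broken or cells are stressed. It raises genes that stop the cell cycle, repair DNA, change metabolism or start cell death, and it raises its own inhibitor. Cdkn1a encodes the cell cycle inhibitor p21, and Ccng1 encodes cyclin G1, which works with a phosphatase on Mdm2. Mdm2 encodes the ubiquitin ligase that destroys p53 and so closes a negative feedback loop. Phlda3 encodes an inhibitor of Akt signalling, Trp53inp1 a stress protein that assists p53, Bax a protein that permeabilises mitochondria in cell death, and Sesn1 a sestrin that restrains mTOR complex 1. Tigar encodes a fructose bisphosphatase that slows glycolysis, and Polk a DNA polymerase that copies past damaged bases. In skeletal muscle Cdkn1a is also known to rise when myoblasts leave the cell cycle and when a muscle is denervated.

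The promoters of these genes are shown as a description. Most of the members were chosen as p53 targets, so a higher share of p53 sites than over all windows is no independent evidence. Windows from 250 bases before to 50 after the transcription start were taken from RefSeq (build GRCm38.p6). They covered 8 of the 9 genes with 11 windows. The consensus p53 half-site, which reads the same on both strands, was found in 6 of the 11 windows, and in 8.36% of the 32841 windows of all genes. One stretch of each of the 6 genes with a match follows, 5′ to 3′ on the strand of the gene, with the half-site in capitals.
Cdkn1a, chr17:29090913-29090952, plus strand: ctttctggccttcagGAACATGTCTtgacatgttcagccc
Mdm2, chr10:117710920-117710959, minus strand: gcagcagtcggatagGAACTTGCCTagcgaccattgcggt
Ccng1, chr11:40755447-40755486, minus strand: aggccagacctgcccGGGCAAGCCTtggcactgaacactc
Bax, chr7:45467075-45467114, minus strand: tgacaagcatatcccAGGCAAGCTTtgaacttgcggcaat
Sesn1, chr10:41887251-41887290, plus strand: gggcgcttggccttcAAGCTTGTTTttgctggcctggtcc
Polk, chr13:96519394-96519433, minus strand: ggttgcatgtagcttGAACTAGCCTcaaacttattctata

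Of the 2 windows of Cdkn1a, that at chr17:29093519-29093818 held 0 half-sites and 0 spaced pairs. The other window, at chr17:29090729-29091028, held 2 half-sites, at -73 and -51 bases from its start. The second of these half-sites holds the first core of a spaced pair. The pair (CATG, any 6 bases, CATG), which also reads the same on both strands, overlaps that half-site and was found in 1 of the 11 windows and in 0.713% of all windows. The pair is shown with both cores in capitals.
Cdkn1a, chr17:29090916-29090959, plus strand: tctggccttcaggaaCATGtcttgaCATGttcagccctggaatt
No half-site was found in the windows of Phlda3 and Tigar, which says only that these letters are not in those windows. The Sesn1 and Polk matches belong to starts inside the annotated genes, at chr10:41810574-41908436 and chr13:96480687-96542579. The motif CANNTG, the letters of the E-box read by muscle factors such as MyoD, was in 6 of the 11 windows and in 72.3% of all windows. A match to the letters is a description of the sequence and not evidence of binding. In the same build the other measured genes lie at chr1:135766085-135769134 (Phlda3), chr6:127085116-127109552 (Tigar) and chr4:11156441-11174379 (Trp53inp1).

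Probes detected per array ranged from 5212 to 13428 in spinal cord, from 8512 to 11577 in muscle and from 6809 to 9691 in blood. In muscle all 8 fast fibre genes on the array passed the filter, in spinal cord 6 of 6 oligodendrocyte and 4 of 5 motor neuron genes did, and in blood 7 of 8 reticulocyte genes did. In spinal cord 2 arrays were dim (G93A-SOD1 at 70 days replicate 1, wild type at 100 days replicate 5). Another 3 carried muscle transcripts, with a summed fast fibre signal of 117399 and 118922 on wild type at 70 days replicates 3 and 5 and of 45990 on G93A-SOD1 at 100 days replicate 8, against 6259 to 12085 on the other spinal cord arrays. One blood array (wild type at 70 days replicate 6) had a raised background, with a median signal of 190.8. The probe for Sod1 differed between genotypes by -0.01 to 0.65 log2 units over the 6 comparisons. No source used here says whether it reads the human transcript, so the genotype labels could not be checked by it.

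In wild type tissue the genes had different homes, and muscle stood out for Ccng1, Phlda3 and Tigar. These levels are log2 signals after all arrays were normalized together, with 15 wild type arrays per tissue over both ages. Ccng1 averaged 9.83 ± 0.47 (SD) in muscle, 7.69 ± 0.43 in blood and 6.40 ± 0.56 in spinal cord. Its lowest muscle array (9.03) lay above its highest blood array (8.74) and its highest spinal cord array (7.77). Limma put Ccng1 higher in muscle than in spinal cord by 3.46 (SE 0.16, adjusted p = 4.48e-36) and than in blood by 2.15 (SE 0.16, adjusted p = 7.74e-23).

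Phlda3 averaged 11.02 ± 0.33 in muscle, 9.30 ± 0.34 in spinal cord and 6.35 ± 0.65 in blood, and the 3 ranges did not overlap. It was 1.71 higher in muscle than in spinal cord (SE 0.14, adjusted p = 2.41e-19) and differed by -2.95 between blood and spinal cord (SE 0.14, adjusted p = 3.29e-34). Tigar averaged 7.89 ± 0.27 in muscle and 5.18 ± 0.16 in spinal cord, with no overlap, a difference of 2.72 (SE 0.16, adjusted p = 8.96e-28). The size of these differences depended on the background step. Between muscle and spinal cord Tigar differed by 1.57 without background correction and by 0.88 with the authors' deposited log2 values, and Ccng1 by 2.67 and 1.92. In blood Tigar was at 4.87 ± 0.36 and detected on 1 of 15 wild type arrays, so its blood level is that of the background.

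Mdm2 was bright in every tissue, at 10.75 ± 0.22 in muscle, 9.93 ± 0.21 in blood and 9.76 ± 0.25 in spinal cord. It was higher in muscle than in spinal cord by 0.98 (SE 0.09, adjusted p = 1.71e-17) and than in blood by 0.81 (adjusted p = 6.64e-14). Blood and spinal cord did not differ beyond their spread (0.17, adjusted p = 0.0766), and that difference turned to -0.95 with median centring. Trp53inp1 was highest in blood at 8.81 ± 0.45, with 7.34 ± 0.34 in muscle and 6.64 ± 0.53 in spinal cord. It was 1.46 higher in blood than in muscle (SE 0.17, adjusted p = 3.56e-13). Its smaller difference between muscle and spinal cord (0.71, adjusted p = 9.67e-05) turned to -0.17 with median centring.

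Cdkn1a varied widely within every tissue, at 8.57 ± 0.58 in muscle, 8.05 ± 0.64 in spinal cord and 7.35 ± 0.82 in blood. Muscle and spinal cord did not differ beyond that spread (0.51, SE 0.29, adjusted p = 0.0965). With median centring that difference was -0.12. Blood differed from spinal cord by -0.71 (adjusted p = 0.0181), but by -0.31 with the authors' deposited log2 values (adjusted p = 0.147) and by -1.86 with median centring. Muscle was higher than blood by 1.23 (adjusted p = 8e-05). Polk was dim everywhere, at 6.38 ± 0.55 in muscle, 5.94 ± 0.40 in spinal cord and 5.64 ± 0.66 in blood, where it was detected on 7 of 15 arrays. Its excess in muscle over spinal cord was 0.42 (adjusted p = 0.0401), fell short of the threshold with the authors' deposited values (0.18, adjusted p = 0.051) and turned to -0.34 with median centring.

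By count 6 of the 7 genes differed between muscle and spinal cord, 4 between blood and spinal cord and 7 between muscle and blood. Over all 12008 genes tested 75.9%, 84.2% and 75.5% did so, so the genes were not set apart by these counts. Ccng1 was higher in blood than in spinal cord by 1.31 (adjusted p = 2.04e-12), a difference that went to -0.02 with median centring.

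**Figure D1:**
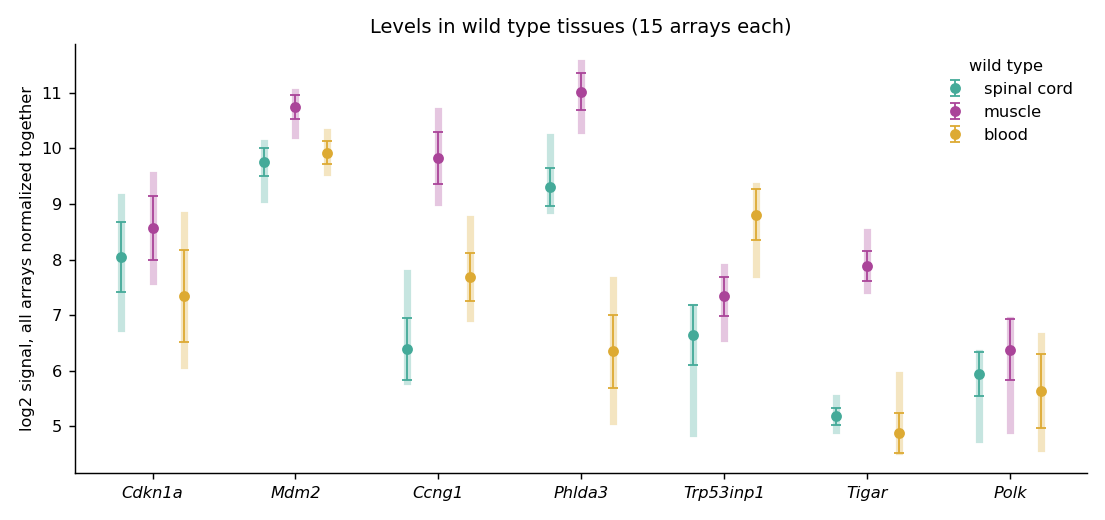
Log2 signal of the 7 measured genes in wild type spinal cord, muscle and blood after all arrays were normalized together (vertical axis), by gene (horizontal axis). Points are means of 15 arrays, whiskers are SD and pale bars run from the lowest to the highest array. Ccng1, Phlda3 and Tigar were highest in muscle without overlap with the other tissues, and Trp53inp1 was highest in blood.

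In G93A-SOD1 muscle the cell cycle inhibitor Cdkn1a was higher and the metabolic enzyme Tigar lower, both without overlap between genotypes at 100 days, while Mdm2 and Phlda3 lay higher by less and Ccng1 lower. From here on values are log2 signals normalized within a tissue. At 100 days the wild type arrays held Cdkn1a at 7.35 to 8.89 with a median of 8.37, and the G93A-SOD1 arrays at 9.03 to 11.56 with a median of 11.12. All 7 G93A-SOD1 arrays lay above the highest wild type array. The difference of the means was 2.42 (SE 0.52), a fold of 5.35. In whole tissue fewer cells of a type and less RNA per cell cannot be told apart.

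At 70 days Cdkn1a was at 8.00 to 9.44 in wild type (median 8.59) and at 7.37 to 12.23 in G93A-SOD1 (median 10.03). Of the 8 G93A-SOD1 arrays 5 lay above every wild type array and 1 lay below every one. The difference was 1.30 (SE 0.48), and the SD within the mutant group was 1.55 against 0.54 in wild type. The second probe of Cdkn1a gave differences of 1.25 at 70 and 2.57 at 100 days.

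Ccng1, the other cell cycle gene, did not follow Cdkn1a. At 100 days it ran from 9.79 to 10.69 in wild type (median 9.94) and from 9.0 to 10.03 in G93A-SOD1 (median 9.68), with 4 of 7 mutant arrays below every wild type array. The difference was -0.54 (SE 0.23). At 70 days the means were equal to 2 decimals, at 9.44, but the mutant arrays spread from 8.57 to 10.10, with 3 above and 2 below every wild type array. A second probe gave -0.11 and -0.54.

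Mdm2, the inhibitor in the feedback loop, ran at 100 days from 10.23 to 11.03 in wild type (median 10.69) and from 10.84 to 11.58 in G93A-SOD1 (median 11.01). The groups overlapped, with 3 of 7 mutant arrays above every wild type array, and the difference was 0.43 (SE 0.17). At 70 days 4 of 8 mutant arrays lay above every wild type array, at 11.45 to 11.93 against a wild type range of 10.57 to 11.08. The other 4 lay within it, and the difference of the means was 0.31 (SE 0.16).

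Phlda3, the Akt inhibitor, was at 10.33 to 11.48 in wild type at 100 days (median 11.10) and at 11.15 to 11.77 in G93A-SOD1 (median 11.32). All 7 mutant arrays lay above the wild type median and 3 above the highest wild type array, with a difference of 0.39 (SE 0.16). At 70 days the difference was -0.02 (SE 0.15). Trp53inp1 differed by -0.13 (SE 0.19) at 70 and by 0.15 (SE 0.21) at 100 days, and its groups overlapped at both ages.

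Tigar ran the other way to Cdkn1a. At 100 days it was at 7.53 to 8.31 in wild type (median 7.67) and at 5.19 to 7.24 in G93A-SOD1 (median 5.72), and all 7 mutant arrays lay below the lowest wild type array. The difference was -1.63 (SE 0.36), 3.10-fold lower. At 70 days it was at 7.18 to 8.00 in wild type (median 7.52) and at 5.37 to 7.98 in G93A-SOD1 (median 6.63). Of 8 mutant arrays 4 lay below every wild type array and the other 4 within the wild type range, with a difference of -0.87 (SE 0.34).

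Polk differed most at the younger age. At 70 days it was at 6.11 to 6.60 in wild type (median 6.39) and at 4.62 to 6.05 in G93A-SOD1 (median 5.24), with no overlap. The difference was -1.10 (SE 0.19), 2.15-fold lower. The probe was detected on 8 of 8 wild type arrays and on 5 of 8 mutant arrays, so the mutant level lies near the background. At 100 days wild type had itself spread down to 4.86 to 6.24 (median 5.98) against 4.91 to 5.61 in the mutant (median 5.28), and the groups overlapped with a difference of -0.43 (SE 0.20).

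At 100 days 2 of the 7 genes were past an adjusted p of 0.05 in muscle, Cdkn1a higher and Tigar lower (Tigar not with median centring, adjusted p = 0.0685), where 10.8% of all 9089 genes were (6.05% higher and 4.75% lower). With median centring 43 genes were past it, 36 of them higher, and the median difference of all genes was 0.18 in place of -0.01. At 70 days Polk was the 1 gene past it among 9089, or 0.011%, and it fell short of the threshold under 5 of 10 alternative settings. At 100 days 2.54% of all genes had groups that did not overlap, and at 70 days 0.066%. These counts are given as descriptions because the muscle differences entered the choice of the genes. The median difference of the 7 genes at 100 days was 0.15, beside -0.01 over all genes, and at 70 days -0.02, beside -0.02.

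**Figure D2:**
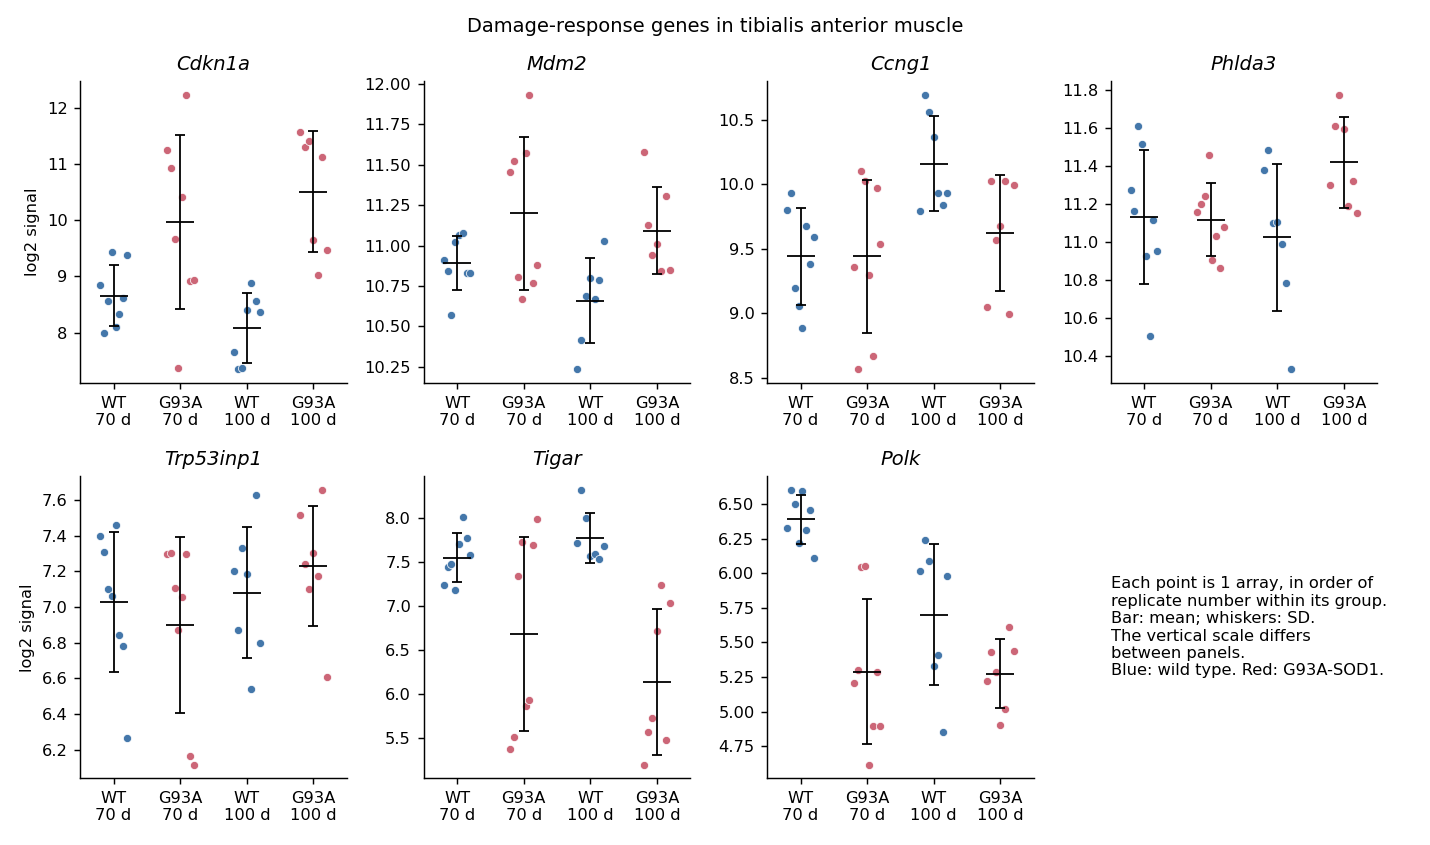
Log2 signal (vertical axis, a scale of its own in each panel) of the 7 measured genes on each of the 30 muscle arrays, by genotype and age (horizontal axis); bars are means and whiskers SD. Cdkn1a lay higher and Tigar lower in G93A-SOD1 at 100 days with no overlap, Polk lay lower at 70 days with no overlap, and the 70 day mutant arrays of Mdm2 and Tigar fell into a high and a low set while those of Cdkn1a spread from 7.37 to 12.23.

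The wide spread of the mutant group at 70 days went along with genes of muscle that has lost its nerve. A list of 14 such genes (among them the fetal acetylcholine receptor subunit Chrng and the transcription factor Runx1) had 8 members past the filter. Their summed signal ran from 744 to 1035 in wild type at 70 days and from 645 to 1025 at 100 days. In G93A-SOD1 at 70 days it was 7500.3, 7262, 8789.8 and 8033 on replicates 1, 2, 5 and 6, and 1014, 879, 843 and 1065 on replicates 3, 4, 7 and 8. So 4 mutant arrays lay within or near the wild type range and 4 lay far above it.

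On replicates 1, 2, 5 and 6 Cdkn1a was at 11.24, 10.92, 10.40 and 12.23. On replicates 3, 4, 7 and 8 it was at 9.66, 7.37, 8.92 and 8.95. Every one of the first 4 lay above every one of the other 4. Tigar showed the mirror image, at 5.37, 5.51, 5.86 and 5.93 on the first 4 and at 7.34, 7.72, 7.69 and 7.98 on the others. Mdm2 was at 11.45, 11.52, 11.57 and 11.93 on the first 4 and at 10.81, 10.67, 10.77 and 10.88 on the others. Ccng1 was lower on the first 4, at 9.36, 8.57, 9.29 and 8.67, than on the others, at 10.10, 10.03, 9.97 and 9.54. The 2 sets were formed by their denervation sums after these were seen. The share of all genes that sort them in this way was not counted, so the order is not shown to be particular to these genes.

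Phlda3, Polk and Trp53inp1 did not sort the mutant arrays at 70 days in this way. Phlda3 was at 11.16, 11.20, 10.90 and 11.03 on replicates 1, 2, 5 and 6, within the 10.86 to 11.46 of the other 4. Polk was at 5.21, 5.30, 4.62 and 4.90 on the first 4, and at 6.05, 6.05, 5.28 and 4.89 on the others. Its mutant arrays were below every wild type array on both sets. Trp53inp1 was at 7.30, 7.30, 7.05 and 7.30 on the first 4, and at 7.11, 6.87, 6.16 and 6.12 on the others, so the sets overlapped.

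At 100 days the denervation genes summed to 8356.8, 6018.6, 5905 and 6994 on replicates 1, 2, 3 and 6, and to 2423, 1512 and 1631 on replicates 4, 5 and 7. Cdkn1a was at 11.56, 11.30, 11.41 and 11.12 on the first set and at 9.66, 9.03 and 9.46 on the second. Tigar was at 5.19, 5.57, 5.72 and 5.47 on the first and at 6.71, 7.24 and 7.03 on the second. Both genes lay outside the wild type range on either set, and further out where the denervation genes were higher. The share of all genes that do so was not counted.

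Of these 8 denervation genes 7 were past the threshold at 100 days, all higher, and 0 at 70 days by limma (7 at an unadjusted p under 0.05, all higher). Of 8 detected macrophage genes 2 were higher at 100 days, and their summed signal was 353 to 867 in G93A-SOD1 against 203 to 473 in wild type. The fast fibre sum was 172502 to 205952 in G93A-SOD1 and 186679 to 213180 in wild type at 100 days. The part of denervated fibres or of other cells in the differences of Cdkn1a, Mdm2, Ccng1 and Tigar was not tested.

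**Figure D3:**
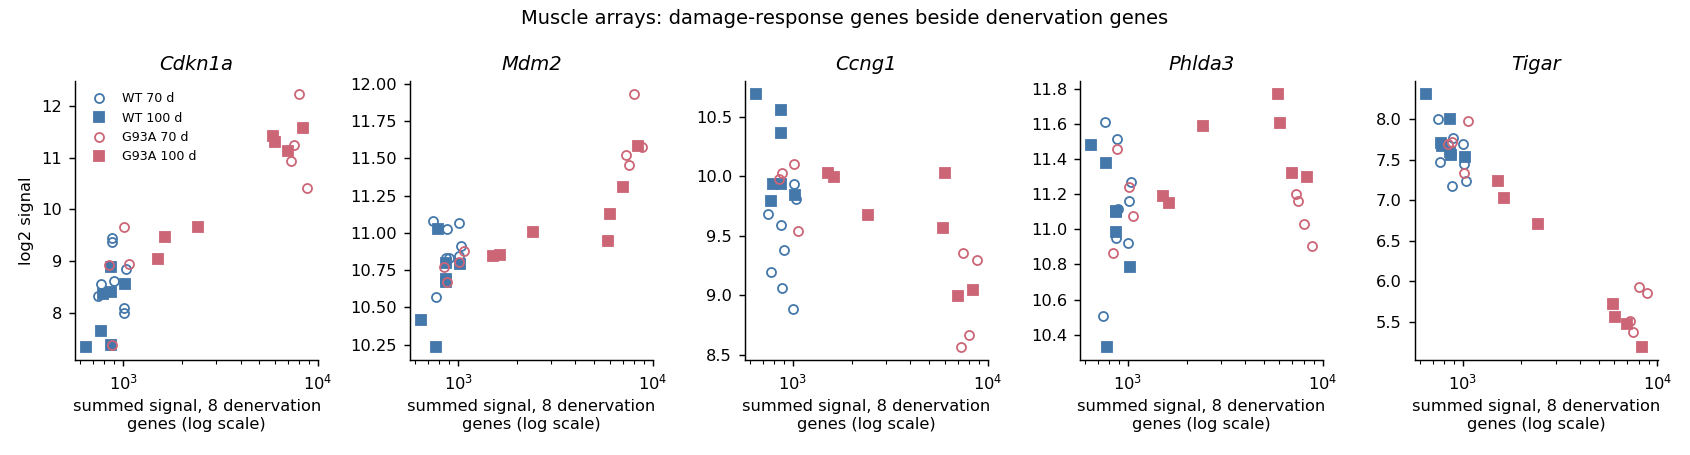
Log2 signal of 5 genes (vertical axis) against the summed signal of 8 denervation genes (horizontal axis, log scale) on the 30 muscle arrays, with circles for 70 and squares for 100 days, blue for wild type and red for G93A-SOD1. Mutant arrays with a sum of 5905 or more held Cdkn1a above and Tigar below every wild type array, and Phlda3 showed no such order.

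Over all 30 muscle arrays Cdkn1a and Tigar had a Pearson correlation of -0.92 as a description, and Cdkn1a and Mdm2 one of 0.80. The arrays share groups and denervation level, so no p is attached. The 3 genes most like Cdkn1a in muscle were Tmem205 (r = 0.92), Mvp (0.92) and Runx1 (0.91), of which Runx1 is in the denervation list. Those most like Tigar were Tspan8 (0.97), Adssl1 (0.96), a muscle enzyme of purine metabolism, and Abcb4 (0.96). Those most like Mdm2 were Bhlhb9, Klc1 and 2410002F23Rik (0.93 to 0.92). For Ccng1 they were Rdh14, Bmi1 and Itm2a (0.91 to 0.90), for Trp53inp1 Rabgap1 (0.77), for Phlda3 Nudt7 (0.73) and for Polk Pla2g6 (0.76).

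In spinal cord the closest genes were Klf13 for Cdkn1a (0.91) and Nupl2 for Trp53inp1 (0.95). There Trp53inp1 was at 4.59 and 5.05 on the 2 dim arrays and at 6.80 to 7.87 on the others. Correlations without the dim arrays were not computed. In blood Rab11fip5 (0.89) and Apoe (0.87) were closest to Cdkn1a. The 3 closest genes of each member had correlations of 0.70 to 0.95 over 31 spinal cord arrays and of 0.65 to 0.89 over 31 blood arrays.

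Other genes of the pathway were tested in muscle from lists drawn up with earlier results of these data known, so their calls are not independent evidence. Over 8 lists of related genes 99 different genes passed the filter in muscle. At 100 days 12 of them were past the threshold, 9 higher and 3 lower, beside the 10.8% of all genes that were. Their median difference was 0.04, beside -0.01 over all genes.

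Of 26 other known p53 targets 2 rose and 0 fell. Gadd45a, a stress gene that slows the cell cycle and takes part in repair, went from 9.37 ± 0.28 (SD, n = 7) to 12.11 ± 0.88 (n = 7), a rise of 2.74 (SE 0.48, adjusted p = 0.0041). Cd82, a tetraspanin of the cell surface, went from 7.01 ± 0.22 to 9.30 ± 0.93, a rise of 2.29 (SE 0.40, adjusted p = 0.00383). The median of the 26 was 0.07. Well known targets such as Zmat3 (0.22, adjusted p = 0.298), Fas (-0.18, adjusted p = 0.511) and Ddb2 (-0.01, adjusted p = 0.954) did not pass and were named after their values were seen.

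Among 10 detected regulators of p53 2 rose, the p53 homologue Trp63 by 1.13 (SE 0.34, adjusted p = 0.0336) and the damage-site adaptor Trp53bp1 by 0.63 (SE 0.16, adjusted p = 0.0193). Trp63 was dim, at 5.39 ± 0.31 (SD) in wild type and 6.52 ± 0.46 in G93A-SOD1. Its wild type level was close to that of Polk in mutant muscle, so its rise starts from low signal. Among 12 cell cycle inhibitors and cyclins Rb1, the retinoblastoma protein, rose by 1.13 (SE 0.27, adjusted p = 0.0132) and cyclin D1 (Ccnd1) by 0.74 (SE 0.17, adjusted p = 0.011). Bok was the 1 of 10 Bcl2 family genes that rose, by 0.36 (SE 0.12, adjusted p = 0.0456), and also the 1 of 10 detected paralogues of the 9 genes.

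Of 23 genes of translesion synthesis and repair 2 rose and 1 fell. DNA ligase 3 (Lig3) rose by 0.87 (SE 0.21, adjusted p = 0.0137) and Rad52, of homologous recombination, by 0.62 (SE 0.15, adjusted p = 0.0127). The repair polymerase Poll fell by 0.36 (SE 0.10, adjusted p = 0.027). Polh and Poli, the nearest relatives of Polk, differed by -0.08 and 0.13 and did not pass (adjusted p = 0.793 and 0.585). Hus1, part of the clamp that senses damage, was the 1 of 10 damage kinases and sensors past the threshold and fell by 0.40 (SE 0.13, adjusted p = 0.0473).

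Of 7 detected enzymes that make or use fructose bisphosphates, the pathway step on which Tigar acts, 0 rose and 1 fell past the threshold. At an unadjusted p under 0.05 by limma there were 6 of the 7, beside 31 of the 99 list genes, which include these 7. The share of all genes at that level is not given here, so this count is a description and sets the enzymes apart from nothing. Muscle phosphofructokinase (Pfkm) fell by 0.31 (SE 0.10, adjusted p = 0.0373), and the median of the 7 was -0.31. Pfkfb3, which makes the fructose bisphosphate that Tigar breaks down, differed by -1.05 without passing (adjusted p = 0.111). Polh, Poli and Pfkfb3 were likewise named after their values were seen. At 70 days 0 of the 99 genes were past the threshold by limma (15 at an unadjusted p under 0.05, beside 15.4% of all genes), and their median difference was -0.03. The members of these lists that rose at 100 days were measured on the same arrays as the denervation genes, and the part of denervation in them was not tested.

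**Figure D4:**
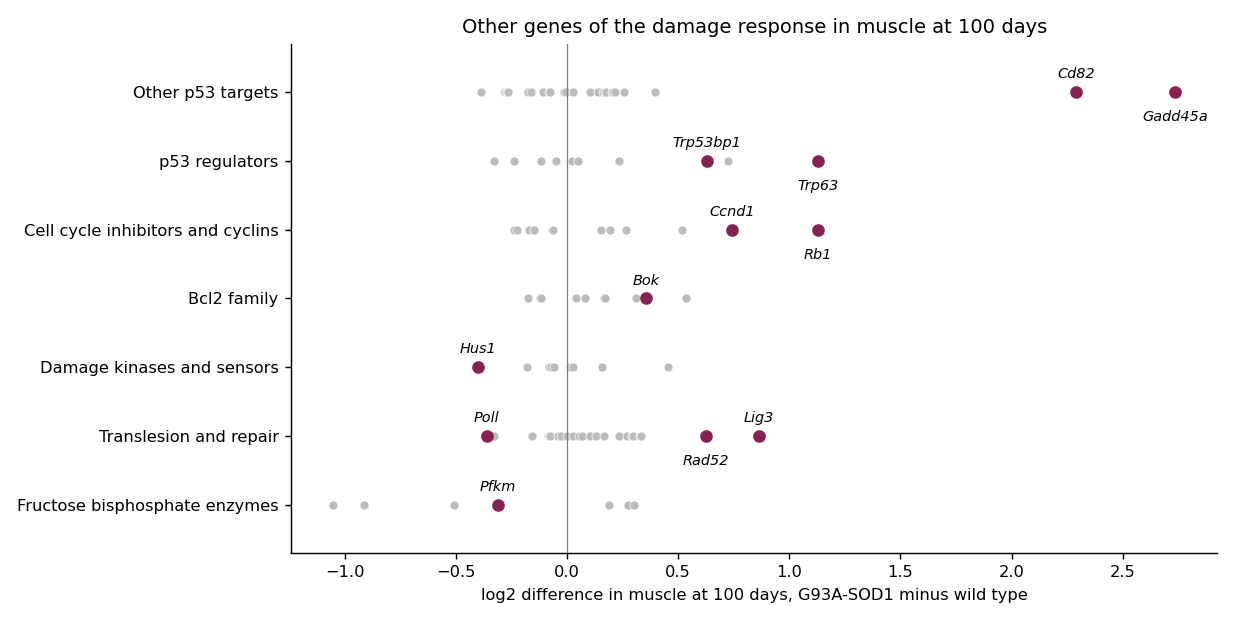
Log2 difference between G93A-SOD1 and wild type muscle at 100 days (horizontal axis) of every detected gene of 7 lists (rows), with genes past an adjusted p of 0.05 in purple and named. Gadd45a and Cd82 stood at 2.74 and 2.29, apart from the other p53 targets.

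In spinal cord, the tissue in which motor neurons die, 0 of the 7 genes were past the threshold at either age by limma, and 0 at an unadjusted p under 0.05. Over all 10801 genes 0.0278% were past it at 70 days and 0.0185% at 100 days (5.01% and 3.24% at an unadjusted p under 0.05). Cdkn1a was at 8.11 to 9.45 in wild type at 70 days (median 8.84) and at 6.45 to 9.19 in G93A-SOD1 (median 8.78). At 100 days it was at 7.50 to 9.75 (median 8.67) and at 7.53 to 9.95 (median 8.68). The groups overlapped at both ages, with differences of -0.25 (95% interval -0.98 to 0.49, adjusted p = 0.825) and -0.05 (-0.81 to 0.71, adjusted p = 1.0).

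In muscle at 100 days the difference of Cdkn1a was 2.42 (SE 0.52), given as a description. Whether the genotype difference itself differed between the tissues was not tested. Mdm2 had the tightest intervals of the 7, from -0.16 to 0.26 at 70 days and from -0.17 to 0.27 at 100 days (adjusted p = 0.873 and 1.0). Tigar differed by -0.11 (-0.48 to 0.26, adjusted p = 0.839) and by -0.16 (-0.54 to 0.22, adjusted p = 1.0). It was detected on 20 of 31 spinal cord arrays. Phlda3 differed by -0.20 (adjusted p = 0.74) and by -0.17 (adjusted p = 1.0).

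The larger differences in spinal cord were smaller without arrays that stood apart, a comparison chosen after seeing the data. The arrays left out were not the same for each gene shown. Ccng1 differed by -0.55 at 70 days (SE 0.29, adjusted p = 0.74). It was highest on wild type replicates 3 and 5, at 8.18 and 8.45, which carried muscle transcripts, and lowest on dim mutant replicate 1, at 4.72. Without the 5 arrays that stood apart the Ccng1 difference was 0.10 (adjusted p = 0.999). It stayed negative under 12 of 13 alternative settings, and this one was the exception.

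Polk differed by 0.49 at 100 days (SE 0.28, adjusted p = 1.0), with 7 of 8 mutant arrays above the wild type median. Dim wild type replicate 5 was at 4.90 and the other 6 at 6.04 to 7.03. Without the 2 dim arrays the Polk difference was 0.24 (adjusted p = 1.0), so part of it remained. Trp53inp1 differed by -0.43 at 70 days and by 0.35 at 100 days (adjusted p = 0.74 and 1.0), and by -0.08 and 0.01 without the 2 dim arrays.

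In blood 0 of the 6 detected genes were past the threshold at either age by limma, where 0.0714% of 8403 genes were at 70 days and 0.0595% at 100 days. At an unadjusted p under 0.05 there was 1 at 70 days, Cdkn1a, and 0 at 100 days, beside 6.26% and 2.32% of all genes. Cdkn1a was at 5.34 to 7.91 in wild type at 70 days (median 6.95) and at 5.22 to 6.52 in G93A-SOD1 (median 6.01). All 8 mutant arrays lay below the wild type median, and the groups overlapped. The difference of -0.78 (95% interval -1.38 to -0.18, adjusted p = 0.706) was opposite in sign to that in muscle.

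The second Cdkn1a probe differed by -1.03 (SE 0.22, adjusted p = 0.0634 over every probe). At 100 days the difference was -0.07 (-0.69 to 0.55, adjusted p = 1.0). Genes of several cell types varied over these blood arrays. Of 16 listed macrophage genes 10 passed the filter. Their summed signal was 534 to 5666 in wild type at 70 days and 539 to 1718 in G93A-SOD1. On wild type replicates 1 to 8 Cdkn1a was at 7.10, 5.34, 6.25, 7.37, 7.91, 7.29, 6.81 and 5.89. On the same arrays the macrophage sum was 870, 972, 534, 3273, 5666, 5121, 3301 and 1136. The array with the highest sum, replicate 5, also held Cdkn1a highest, while replicate 1 held it at 7.10 with a sum of 870. On replicates 1 to 8 the B cell sum was 8883, 5322, 8702, 16703, 15492, 19750, 10215 and 7798. The platelet sum was 29326, 25040, 35080, 12533, 14461, 11360, 27177 and 34770. In G93A-SOD1 at 70 days the B cell sum was 11986.5 to 17789 and the platelet sum 12487 to 30378. The part of macrophages, B cells or platelets in the difference was not tested.

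The other genes of blood had smaller differences. Mdm2 differed by -0.02 (-0.24 to 0.20) at 70 days and by -0.01 (-0.24 to 0.22) at 100 days, with adjusted p = 0.993 and 1.0. Trp53inp1, at its highest level in blood, differed by -0.08 (adjusted p = 0.984) and by -0.30 (-0.74 to 0.14, adjusted p = 1.0). Ccng1 differed by -0.09 and -0.13, Phlda3 by -0.14 and -0.12, and Polk by -0.07 and 0.21, with adjusted p from 0.964 to 1.0. Polk was detected on 16 of 31 blood arrays and Phlda3 on 25.

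**Figure D5:**
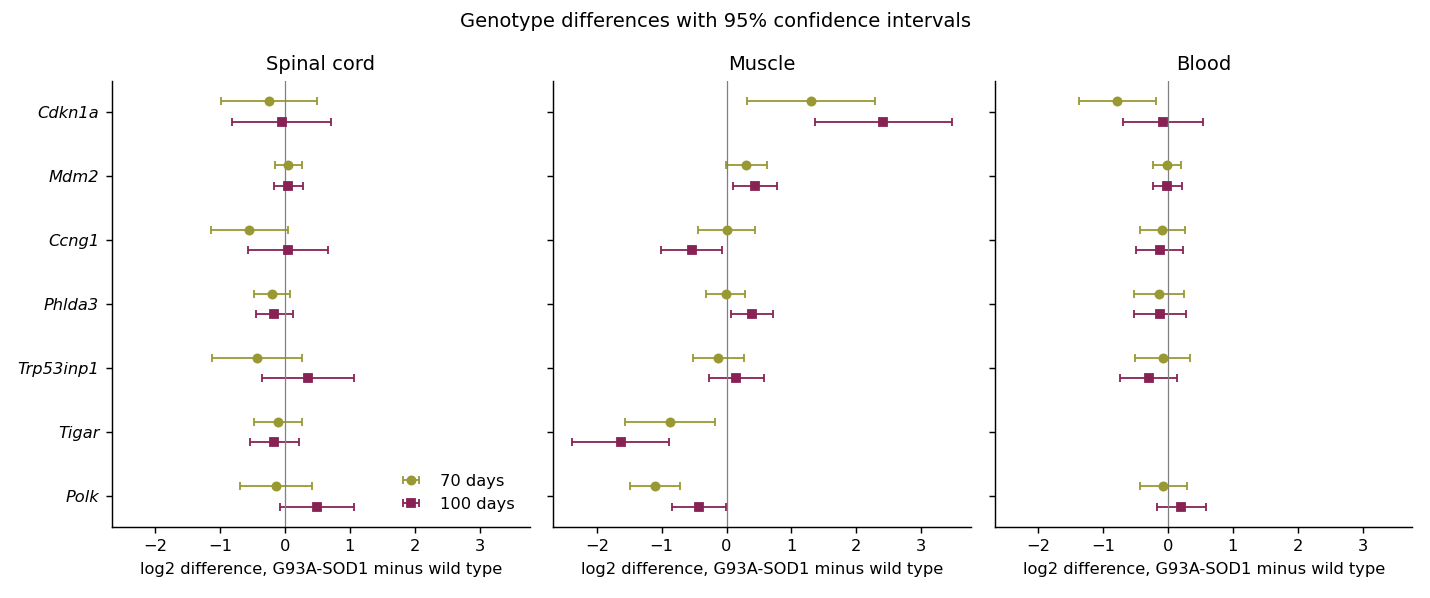
Log2 difference between G93A-SOD1 and wild type (horizontal axis) of each gene (rows) in spinal cord, muscle and blood, with circles for 70 and squares for 100 days and whiskers for the 95% confidence interval of the limma fit. In spinal cord every interval contained 0, in blood that of Cdkn1a at 70 days did not, and in muscle Cdkn1a at 100 days reached 2.42 and Tigar -1.63. The muscle intervals are descriptions and no test, because the muscle differences entered the choice of the genes.

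In spinal cord 109 genes of the 8 lists were tested and in blood 97, and limma put 0 of them past the threshold at either age. At an unadjusted p under 0.05 there were 7 and 5 in spinal cord and 3 and 5 in blood, at 70 and 100 days. The median difference of the list genes was 0.01 and 0.05 in spinal cord and 0.03 and 0.02 in blood.

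The change of the genotype difference between 70 and 100 days (the interaction) was past the threshold for 0 of the 7 genes in spinal cord, 0 of 7 in muscle and 0 of 6 in blood, as it was for 0% of all genes in each tissue. At an unadjusted p under 0.05 there were 0 in spinal cord and 0 in blood, beside 4.04% and 1.44% of all genes. In muscle Polk was the 1 member there, beside 2.53% of all genes, with a difference that went from -1.10 to -0.43. That count is a description and no test, since the muscle difference of Polk entered the choice of the genes. The muscle difference of Cdkn1a grew by 1.12 (SE 0.71) and that of Tigar changed by -0.76 (SE 0.50) between the ages. In spinal cord the largest interaction was that of Trp53inp1 (0.78, adjusted p = 0.803), which was 0.08 without the 2 dim arrays, and in blood that of Cdkn1a (0.71, adjusted p = 1.0).

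Wild type mice of 100 against 70 days showed 0 of the genes past the threshold in any tissue, again as 0% of all genes. At an unadjusted p under 0.05 there were 0 in spinal cord and 0 in blood, beside 2.68% and 9.71% of all genes. In muscle Ccng1 and Polk were there, beside 11.8% of all genes, again as a description, because the wild type muscle arrays are part of the differences that entered the choice. In wild type muscle Ccng1 was higher at 100 days by 0.72 (SE 0.23), from 9.44 ± 0.37 (SD, n = 8) to 10.16 ± 0.37 (n = 7). Polk was lower by 0.69, from 6.39 ± 0.18 to 5.70 ± 0.51. These wild type shifts enter the genotype differences of the same genes, since the 100 day mutant arrays held Ccng1 at 9.62 ± 0.45 and Polk at 5.27 ± 0.25, near the 9.44 ± 0.59 and 5.29 ± 0.52 of the 70 day mutant arrays. Between the ages of the mutant mice 0 members passed by limma in any tissue, adjusted (0% of all genes) or unadjusted (7.38% of all genes in muscle, 7.07% in spinal cord and 5.89% in blood). In muscle Cdkn1a shifted by 0.54 (SE 0.50) and Tigar by -0.54 (SE 0.35).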

How the data were processed

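The deposited table of the authors held a signal intensity per probe and array, non-normalized per the file headers, and a detection p-value deposited with each signal; no source used here says how the scanner software made them. A value table in log2 units was deposited too, with no statement of how it was normalized. It kept the order of the intensities on each array, and 2 dim spinal cord arrays had a median of 6.38 in it against 7.42 on the others. Left out were 7 lines that named no probe and held 0.00539% of the signal.

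Arrays were background corrected and quantile normalized within a tissue with neqc of limma 3.58.1 (offset 16, R 4.3.3), and over all 92 arrays for levels between tissues. A single gene symbol was given for 20984 of 24613 probes, several for 1 and none for 3628. Symbols were matched to RefSeq (GRCm38.p6). A probe was tested with a detection p under 0.05 on at least 7 arrays of the tissue, with the brightest such probe per gene. The 4 groups of each tissue entered 1 limma fit, with Benjamini-Hochberg adjustment at 0.05 over all genes tested; every adjusted p in the text is from limma, and the fit was tested on simulated data. Among 308 within-group pairs of arrays 0 were identical. The precision of a value is limited by the number of arrays.

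The 9 genes and all lists were chosen with earlier results of these data known. The text names the 9 genes, per list up to 4 genes past the threshold in each direction with the largest change, and the 3 genes most correlated with a member. Same-numbered arrays of both genotypes correlated at -0.31 to 0.52 after removal of group means. The median was positive in every tissue and age, from 0.09 to 0.25. In blood 7 of 8 pairs at 70 days and 6 of 7 at 100 days were over 0.1. The numbers were not taken to pair mice and did not enter the main fit, and whether they mark a batch was not tested. Figures were drawn with Python 3.11.15, pandas 2.3.3 and matplotlib 3.10.9.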

Additional observations from a re-analysis of the deposited data

Results flagged for a closer look

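The values of a gene within a group were searched for 1 array far from the others, in 80 sets of 7 or 8 arrays. There were 9, at a limit that chance passes in about 1 in 20 sets, but 5 of the 9 lie on 1 dim array and so are not independent. Of the 9 values 8 were in spinal cord. On the dim G93A-SOD1 array of 70 days (replicate 1) 4 genes were far below the other 7 arrays: Cdkn1a at 6.45 (next lowest 8.46), Ccng1 at 4.72 (6.61), Trp53inp1 at 4.59 (7.21) and Polk at 4.62 (6.51). On that array Tigar was far above, at 6.79 (next highest 5.57), although its probe was not detected there. On the dim wild type array of 100 days (replicate 5) Trp53inp1 was far below, at 5.05 (7.11), and Phlda3 far above, at 10.73 (10.05). Phlda3 was also far above on wild type at 70 days replicate 3, which carried muscle transcripts, at 10.45 (9.93). In blood Cdkn1a was far above on G93A-SOD1 at 100 days replicate 7, at 6.97 (6.26), the mutant array of that age with the highest macrophage sum (2551).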

How the results depend on the processing

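Up to 10 alternative settings were run for each genotype, interaction and age comparison, with 3 more in spinal cord and 1 more in blood that left out arrays and were chosen after seeing the data, and 4 for the tissue comparisons. In spinal cord and blood 0 of the 314 values under these settings, each of the brightest probe of a gene, was past the threshold (lowest adjusted p = 0.175, limma). In muscle at 70 days the count of the 7 genes called went from 1 (Polk) to 0 with all tissues normalized together, median centring, no detection filter, the 2 groups alone or array weights. At 100 days it went from 2 to 1 with median centring, under which Tigar had an adjusted p of 0.0685, and to 3 with array weights, which added Mdm2. Cdkn1a was past the threshold under all 10 settings, with differences of 1.70 to 2.62. All muscle calls of members in this section are descriptions and no test, because the muscle differences entered the choice of the genes. Median centring moved the median of all genes to between -0.34 and 0.61 over the comparisons, beside -0.04 and 0.05 with quantile normalization, and called 43 genes in muscle at 100 days where 982 were called. The count over all genes there was 1575 with array weights and 498 with no detection filter. The share of calls that were higher was 83.7% with median centring and 56.0% with quantile normalization. Between tissues median centring turned Trp53inp1 (-0.17) and Polk (-0.34) in muscle against spinal cord, and Mdm2 (-0.95) and Ccng1 (-0.016) in blood against spinal cord. It also turned the uncalled difference of Cdkn1a in muscle against spinal cord (-0.12). With the authors' deposited log2 values Cdkn1a in blood against spinal cord (adjusted p = 0.147) and Polk in muscle against spinal cord (0.051) and against blood (0.0946) lost their calls, and the uncalled differences of Polk and Tigar in blood against spinal cord went to 0.02 and 0.0048. With the replicate block, 3 genes were called in muscle at 100 days (Cdkn1a, Phlda3 and Tigar), 1 at 70 days, and 1322 genes in all at 100 days; the same numbers are not known to mark the same mice. The causes of these changes were not tested. Signal near the background limits Polk in muscle and blood and Tigar in spinal cord and blood, and Bax and Sesn1 were not analysed here.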

Other observations

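Replicate numbers 1, 2, 3 and 6 of the G93A-SOD1 mice of 100 days, whose muscle arrays had the highest sums of denervation genes, also numbered the spinal cord arrays with the highest sums of macrophage and microglia genes, at 5048, 6073, 5227.5 and 3468 against 2023 to 2500 on the other 4 arrays. On these 4 spinal cord arrays Cdkn1a was at 9.16, 8.10, 8.55 and 8.81, within the 7.53 to 9.95 of the other 4. At 70 days the spinal cord arrays with high sums were replicates 1 and 2 (4232 and 5789), of which replicate 1 is a dim array, and the muscle arrays with high denervation sums were replicates 1, 2, 5 and 6. No source used here says whether a number stands for the same mouse in both tissues, and these values were singled out after they were seen.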
